A study of Mus musculus with 12 samples.

Results

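The proteases of the lysosome were followed here in blood monocytes of TRIM33 and WT mice. The 10 genes were chosen by name, with earlier results of these data known. They are Ctsa, Ctsb, Ctsc, Ctsd, Ctsh, Ctsk, Ctsl, Ctss and Ctsz, which encode cathepsins, and Lgmn, which encodes legumain. All 10 are on the array, among 23279 genes with a symbol. RNA came from sorted blood monocytes that carried CD115, CD11b and much Ly6C on their surface, and was measured on 12 single-colour expression arrays. TRIM33 mice gave 6 arrays and WT mice gave 6, and the labels put all of them in strain C57BL/6 LyzCre at 6 to 8 weeks of age. LyzCre names a recombinase driven from the lysozyme locus of myeloid cells, and the label is given for the WT arrays too. The sources used here do not say whether the WT mice carry the recombinase, nor which Trim33 allele the TRIM33 mice carry. The title of the series asks about the resolution of colonic inflammation when TRIM33, a chromatin-bound cofactor of SMAD proteins, is missing from mature myeloid cells. The titles of 2 arrays per genotype call them mixes, a word the labels do not explain. Nothing in the labels says that arrays come from separate animals, so a p-value here rests on array-to-array spread alone, and that spread may be technical.

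Lysosomal proteases are made as inactive proforms, sorted to the lysosome mainly by mannose 6-phosphate tags, and activated by the acid that the vacuolar proton pump builds up. Most cathepsins are cysteine proteases of the papain fold, while Ctsd encodes an aspartic protease, Ctsa a serine carboxypeptidase and Lgmn a cysteine protease that cuts after asparagine. In monocytes, macrophages and dendritic cells they break down ingested material and trim antigens and the invariant chain for MHC class II molecules, and stefins and cystatins inhibit the cysteine cathepsins.

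The labels were checked first. Trim33 read 6.06 to 6.23 on the log2 scale on the TRIM33 arrays and 6.81 to 7.05 on the WT arrays, without overlap, and fell by 0.79 (SE 0.0671; limma, Benjamini-Hochberg adjusted p = 0.000637). Ly6c2, one of the genes behind the sorted Ly6C antigen, averaged 12.3 to 12.4 in the array sets described next, while 5 T cell markers averaged at most 4.2 on any array. The treatment protocol in the labels speaks of CD4 T cells, whereas the source names and the design text give monocytes, which were followed here. The arrays fall into 2 sets of 6, each with 3 TRIM33 and 3 WT arrays, when clustered over all features other than the 10 protease genes and without the genotype. One set reads 9.01 to 10.2 for Xist, against 3.36 to 3.64 in the other, which reads 5.73 to 6.77 for the Y-linked Kdm5d, against 2.47 to 3.27. They are called the Xist set (TRIM33 replicates 4, 5 and 6 and WT replicates 1, 2 and 3) and the Y set (TRIM33 replicates 1, 2 and 3 and WT replicates 4, 5 and 6). All 4 mixes are in the Y set.

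The genotype comparison asks which of these transcripts differ in monocytes of TRIM33 mice. None of the 10 proteases passed the test: 0 of 10 had an adjusted p under 0.05 by limma, and 0 had an unadjusted p under 0.05. Over all genes 5 passed, which is 0.0215% (0.0172% higher in TRIM33 arrays, 0.0043% lower). Unadjusted p-values under 0.05 were found for 3.07%. All 10 proteases overlapped between genotypes, while 0.198% of all genes did not. The median difference of TRIM33 minus WT was 0.033 on the log2 scale over the 10 proteases, against -0.014 over all genes. In bulk samples, fewer cells of a type and less RNA per cell cannot be told apart.

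In a fit blocked by array set, 0 of 10 passed against 0.0387% of all genes (0.0344% higher), and of the 10 only Lgmn had an unadjusted p under 0.05, against 5.28% of all genes. Within the Xist set 0 of 10 passed against 0.0129% of all genes, and 1 of 10, again Lgmn, had an unadjusted p under 0.05, against 4.99%. Within the Y set 0 of 10 passed against 0.0344%, and 0 had an unadjusted p under 0.05, against 4.57%.

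Ctss, Ctsb, Ctsd and Ctsl are among the endopeptidases, which cut within proteins, and none of their differences passed. Ctsk and Lgmn, also endopeptidases, are given below, and Lgmn had the widest unblocked interval of all the proteases. Ctss, the cathepsin that removes the last part of the invariant chain in antigen-presenting cells, read 11.25, 11.23 and 11.21 on TRIM33 arrays of the Xist set, against 11.26, 11.19 and 11.31 on its WT arrays. In the Y set it read 11.82, 11.73 and 11.76 on TRIM33 arrays, against 11.74, 11.70 and 11.74 on WT arrays. The genotypes overlapped in both sets, and the difference of 0.0078 on the log2 scale had a 95% confidence interval of -0.32 to 0.34, or -0.14 to 0.15 in the blocked fit. Ctsb, a cathepsin of broad specificity that also acts as a carboxydipeptidase, read 10.93 to 11.49 on TRIM33 arrays and 10.85 to 11.42 on WT arrays, a difference of 0.029 (interval -0.23 to 0.29). Ctsd, the aspartic protease, averaged 10.47 ± 0.21 on TRIM33 arrays and 10.46 ± 0.10 on WT arrays (SD, n = 6 each), with an interval of -0.21 to 0.22 for the difference. Ctsl, which does the work of Ctss in thymic epithelium and other cells, averaged 7.88 ± 0.35 on TRIM33 arrays and 7.85 ± 0.22 on WT arrays, with an interval of -0.32 to 0.37. As folds, the unblocked intervals of Ctss, Ctsb, Ctsd and Ctsl lay between 0.799 and 1.29.

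TRIM33 replicate 2, a mix, held the highest reading of 4 of the 10 proteases. It read 8.53 for Ctsl, where the rest read 7.55 to 8.15, and 10.81 for Ctsd, where the rest read 10.21 to 10.64. Without it the genotype difference of Ctsl was -0.10 and that of Ctsd -0.065 in the unblocked fit, and -0.095 and -0.065 in the blocked fit. Leaving out other single arrays turned the sign too, in 5 of 12 unblocked cases in all for Ctsd and 3 of 12 for Ctsl. The same array had the highest mean of 12 neutrophil markers in the Y set, 6.73, against 5.5 as the lowest there. The Xist set had 6.56 to 7.14. Within the Y set this array was also highest for cell cycle genes (5.96), progenitor and primary granule markers (5.58) and Ly6C-high monocyte markers (11.48). It was lowest there for Ly6C-low monocyte (7.80), natural killer cell (3.98) and dendritic cell (4.86) markers, and for the invariant chain, class II and DM genes (8.01). For B cell, T cell, tissue macrophage, erythroid and platelet markers it was at neither end. The part of other cells in these readings was not tested.

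Ctsk, the collagen-cutting cathepsin of osteoclasts, read 3.09 to 3.85 on TRIM33 arrays and 3.26 to 4.16 on WT arrays. The medians of all features were 4.16 to 4.25, so Ctsk lay in the lower range of the arrays, and the files hold no detection calls. Its difference of 0.038 had an interval of -0.32 to 0.40.

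Among the exopeptidases, which trim the ends of peptides, Ctsh and Ctsz had readings that parted by genotype within a single set. Ctsh, an aminopeptidase, read 10.35, 10.13 and 10.20 on TRIM33 arrays of the Xist set, against 10.02, 9.97 and 10.01 on its WT arrays, without overlap. In the Y set the readings overlapped, with 10.38, 10.33 and 10.41 on TRIM33 arrays and 10.41, 10.35 and 10.41 on WT arrays. Over all arrays the difference was 0.10 (SE 0.104; limma adjusted p = 1).

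Ctsz, a carboxypeptidase, read 10.45, 10.31 and 10.37 on TRIM33 arrays of the Y set, against 10.61, 10.56 and 10.47 on its WT arrays, all TRIM33 arrays below all WT arrays. In the Xist set its readings overlapped, at 10.31, 10.29 and 10.42 on TRIM33 arrays and 10.35, 10.22 and 10.33 on WT arrays. Its overall difference of -0.065 (SE 0.0808) did not pass either. With 3 arrays against 3, groups did not overlap for 10.3% of all genes in the Xist set, where Ctsh and Lgmn were 2 of the 10, and for 10% in the Y set, where Ctsz was 1 of the 10.

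Ctsc, the dipeptidyl peptidase that activates granule serine proteases, averaged 11.01 ± 0.22 on TRIM33 arrays and 10.94 ± 0.21 on WT arrays (SD, n = 6 each), with an interval of -0.20 to 0.34 for the difference. Ctsa, the carboxypeptidase that also shields the lysosomal sialidase and beta-galactosidase from breakdown, read 10.87, 10.84 and 10.92 on TRIM33 arrays of the Xist set, against 10.94, 10.53 and 10.98 on its WT arrays. In the Y set it read 11.65, 11.58 and 11.57 on TRIM33 arrays, against 11.61, 11.49 and 11.56 on WT arrays. The genotypes overlapped in both sets, and the difference of 0.052 had an interval of -0.42 to 0.52, or -0.13 to 0.24 in the blocked fit.

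Lgmn had the largest genotype difference of the 10. It read 7.94, 7.89 and 7.74 on TRIM33 arrays of the Xist set, against 7.43, 7.35 and 7.57 on its WT arrays. In the Y set it read 9.47, 9.55 and 9.24 on TRIM33 arrays, against 9.41, 8.93 and 9.06 on WT arrays. All TRIM33 arrays were above all WT arrays in the Xist set, and in the Y set 1 WT array, replicate 4, read above TRIM33 replicate 3.

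The Lgmn difference was 0.35 on the log2 scale (SE 0.462, interval -0.65 to 1.34; limma adjusted p = 1 without the block). Blocked by array set it had SE 0.0986 and an interval of 0.13 to 0.56, which is 1.10-fold to 1.47-fold, but did not pass over all genes (unadjusted p = 0.0034, limma adjusted p = 0.597). Its difference was 0.41 in the Xist set and 0.28 in the Y set. Without the block it ran from 0.16 without WT replicate 2 to 0.57 without WT replicate 4 when single arrays were left out, which also leaves the sets unequal between genotypes. In the blocked fit the same step gave 0.31 to 0.41, with limma adjusted p-values of 0.311 or more.

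**Figure D1:**
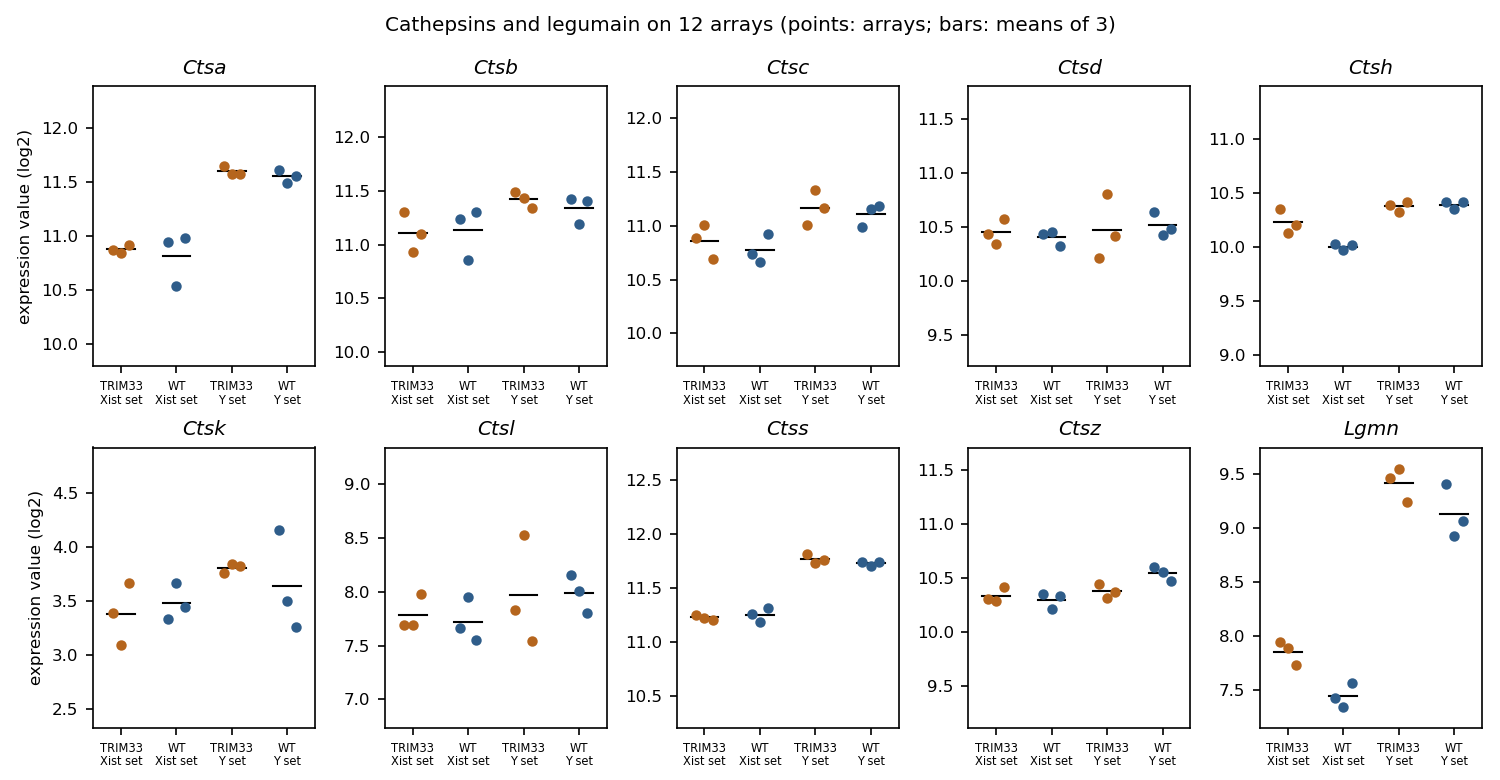
Expression value (log2) of each protease gene on each array, in panels whose axes all span the same number of log2 units. Points are arrays, TRIM33 in brown and WT in blue, and bars are means of 3. Lgmn, Ctsa and Ctss separate the Xist set from the Y set, while TRIM33 and WT arrays overlap for most genes.

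**Figure D2:**
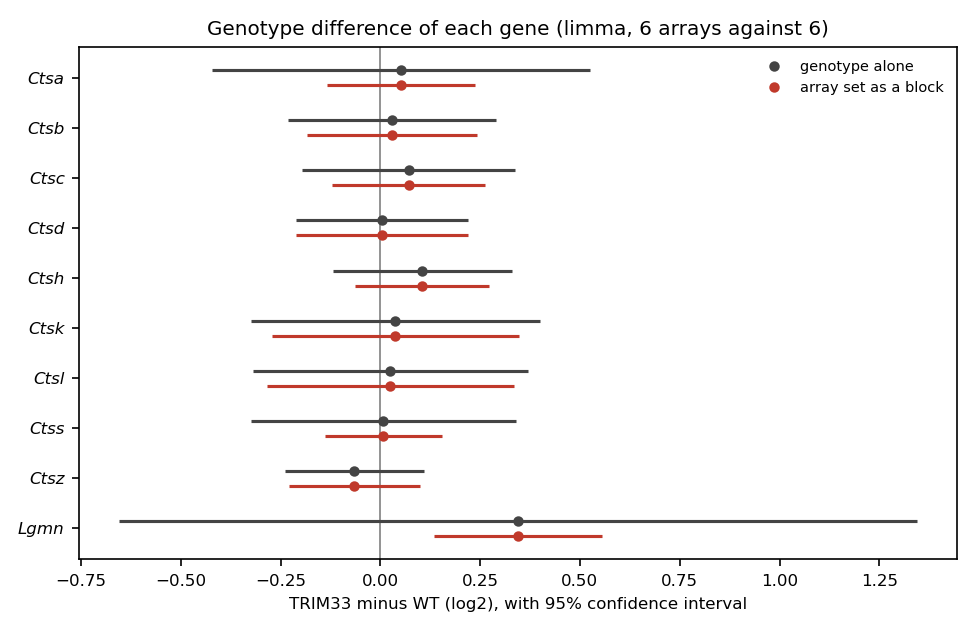
TRIM33 minus WT difference (log2) of each gene with its 95% confidence interval by limma, unblocked in grey and blocked by array set in red. All intervals without the block span 0, and with the block that of Lgmn runs from 0.13 to 0.56.

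A test of whether the genotype difference itself differed between the sets passed for 0 of 10 proteases by limma, against 0.0043% of all genes, and 0 had an unadjusted p under 0.05, against 4.21%. The difference of differences, Xist set minus Y set, was 0.24 for Ctsh (95% confidence interval -0.075 to 0.56) and 0.20 for Ctsz (-0.12 to 0.53). The readings of Ctsh and Ctsz that parted in a single set were therefore not shown to differ between sets.

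The array sets differed more than the genotypes did for these genes: from -1.63 to -0.069 between sets, against -0.065 to 0.35 between genotypes. Because the sets were drawn from these arrays, their values are given as a description without a test. The mean of each of the 10 proteases was lower in the Xist set than in the Y set, with a median difference of -0.28 on the log2 scale, against 0.0015 over all genes. For 3 of the 10, Lgmn, Ctsa and Ctss, all 6 arrays of the Xist set lay below all 6 of the Y set, as they did for 6.59% of all genes and for 12.6% of the 11639 genes above the median level. None of the 10 lay higher in the Xist set without overlap, as 7.45% of all genes did (14% in either direction, and 2.7% higher by more than 1). Lgmn alone was also lower by more than 1 on the log2 scale, as were 1.68% of all genes.

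Lgmn differed most between sets. Its Xist set averaged 7.65 ± 0.24 and its Y set 9.28 ± 0.24 (SD, n = 6 each), a difference of -1.63 on the log2 scale, or 3.09-fold. A lower difference was found for 0.601% of all genes. The gap was -1.56 among TRIM33 arrays and -1.69 among WT arrays, so it was seen in both genotypes.

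Ctsa averaged 10.85 ± 0.16 in the Xist set and 11.58 ± 0.05 in the Y set, a difference of -0.73, with -0.72 among TRIM33 arrays and -0.74 among WT arrays. Ctss averaged 11.24 ± 0.04 in the Xist set and 11.75 ± 0.04 in the Y set, a difference of -0.51, with -0.54 among TRIM33 arrays and -0.47 among WT arrays. The gap of Ctss was small in fold, 1.42, yet more than 10 times the SD within either set.

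The other 7 genes overlapped between sets. Ctsc differed by -0.32, Ctsk by -0.29, Ctsh by -0.27, Ctsb by -0.26 and Ctsl by -0.22. Ctsz differed by -0.14 and Ctsd by -0.069. Without TRIM33 replicate 2 the difference of Ctsl was -0.11 and that of Ctsd -0.0071, and Ctsd differed by -0.13 without TRIM33 replicate 1 and by -0.040 without WT replicate 4. Among TRIM33 arrays alone 5 of the 10 had the Xist set below the Y set without overlap, against 14.7% of all genes, and among WT arrays alone 6 of the 10, against 13.5%. Without the mixes, which leaves 2 arrays in the Y set, it was 7 of the 10, against 13.8%. Lgmn, Ctsa and Ctss were among them each time.

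**Figure D3:**
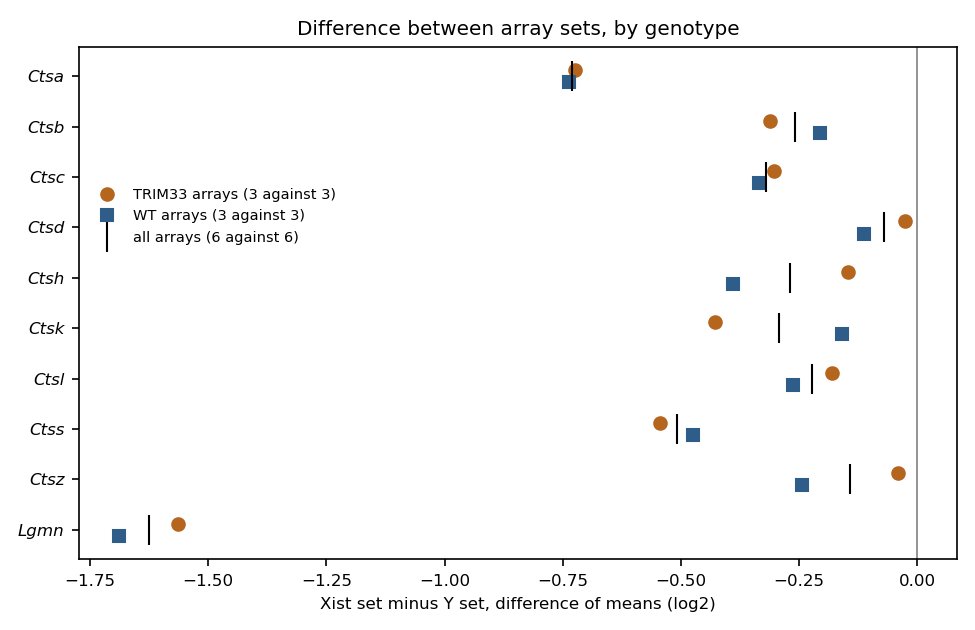
Difference of means between the Xist set and the Y set (log2) for each gene, among TRIM33 arrays (brown circles), among WT arrays (blue squares) and over all arrays (black bars). Every point lies below 0, Lgmn lies lowest at -1.63 over all arrays and Ctsd lies nearest to 0 at -0.069.

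Marker transcripts of other cells and of cell states differed between the sets too. Over all genes 7.45% were higher in the Xist set without overlap and 6.59% lower. All 11 measured cell cycle genes were higher in the Xist set without overlap, with a list mean of 9.61 to 9.70 against 4.77 to 5.96 in the Y set. Of 6 progenitor and primary granule markers 5 were, with a mean of 8.77 to 9.17 in the Xist set against 4.74 to 5.58 in the Y set. Of 9 Ly6C-low monocyte markers 6 were lower without overlap, with a mean of 6.68 to 7.0 in the Xist set against 7.80 to 8.68 in the Y set. The 4 platelet markers averaged 3.88 to 4.08 in the Xist set against 5.27 to 7.12 in the Y set, with 3 of 4 lower without overlap. Alas2, the 1 erythroid marker measured of 4 listed, read 3.57 to 4.14 in the Xist set against 7.83 to 10.2 in the Y set. Of 12 neutrophil markers 5 were higher and 1 lower without overlap, with a mean of 6.56 to 7.14 in the Xist set against 5.5 to 6.73 in the Y set. Most markers of the other types overlapped. Lower without overlap were 1 of 5 Ly6C-high monocyte, 3 of 9 tissue macrophage and 1 of 5 dendritic cell markers. So were 1 of 4 B cell and 2 of 5 T cell markers, while 1 of 5 natural killer cell markers was higher.

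Of the sorted antigens, Csf1r, which encodes CD115, averaged 9.95 in the Xist set and 11.02 in the Y set, Itgam, which encodes CD11b, 9.66 and 10.49, and Ly6c2 12.33 and 12.37. The part of these cells, and of whatever else separates the sets, in the protease differences was not tested, and the sex-linked transcripts and the cell cycle genes part the arrays in the same way, so they cannot be told apart here. Of 11630 genes above the median level, proteases aside, Bin2 (Pearson's r = 0.977), Itgam (0.976) and Tcp11l2 (0.966) were most like the mean of the 10 proteases over the 12 arrays. Once each array set's mean was subtracted, Rbm7 (0.886), Ccnf (0.875) and Wwox (0.853) were most like it. Without that step Rbm7 had r = 0.092, Ccnf -0.895 and Wwox 0.716. All these values describe 12 arrays that share 2 sets. The genes were picked as the highest of 11630 on few arrays, where high values can arise by chance, and none was tested.

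Among themselves the proteases were uneven. Over the 12 arrays Ctsa and Ctss had r = 0.98 and each had r = 0.96 with Lgmn. With set means subtracted, Ctsa and Ctss had r = 0.69, Ctsa and Lgmn r = 0.43 and Ctss and Lgmn r = 0.26. The pairs with the highest r within sets were Ctsd with Ctsl, which share their highest array, at 0.79 and Ctsa with Ctsb at 0.79. Ctsb with Ctss followed at 0.75, and the lowest was Ctsd with Ctss at -0.54. Ctsa, Ctsb, Ctss and Lgmn share their lowest array, WT replicate 2.

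Promoter sequence was read for the genes that separated the sets, and for Ctsd, which did not, since readings that move together invite a look for shared letters. The windows are the 250 bases before each start annotated by RefSeq on GRCm38.p6, written 5′ to 3′ along the gene, and 8 of the 10 genes had an entry. Capitals mark CACGTG, the core of the element bound by TFEB and its relatives, which drive many lysosomal genes. Both starts are shown for Lgmn, the second downstream of the first, and for Ctsa the second of 2 starts.
Lgmn first start, chr12:102439729-102439978, minus strand: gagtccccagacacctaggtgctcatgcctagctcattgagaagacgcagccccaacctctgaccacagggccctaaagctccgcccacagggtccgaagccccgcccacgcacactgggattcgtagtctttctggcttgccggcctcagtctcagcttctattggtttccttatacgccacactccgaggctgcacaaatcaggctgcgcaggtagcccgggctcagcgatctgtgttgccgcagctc
Lgmn second start, chr12:102439093-102439342, minus strand: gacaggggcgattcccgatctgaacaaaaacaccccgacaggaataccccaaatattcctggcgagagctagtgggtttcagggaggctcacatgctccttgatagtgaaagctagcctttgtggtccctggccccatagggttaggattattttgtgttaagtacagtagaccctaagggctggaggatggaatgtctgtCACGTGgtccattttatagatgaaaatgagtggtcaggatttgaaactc
Ctsa second start, chr2:164833523-164833772, plus strand: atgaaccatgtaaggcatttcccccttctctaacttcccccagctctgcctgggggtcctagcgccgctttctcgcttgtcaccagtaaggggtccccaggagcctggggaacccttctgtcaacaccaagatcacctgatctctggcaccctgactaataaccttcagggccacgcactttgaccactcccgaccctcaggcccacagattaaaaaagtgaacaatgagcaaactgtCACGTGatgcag
Ctss, chr3:95526536-95526785, plus strand: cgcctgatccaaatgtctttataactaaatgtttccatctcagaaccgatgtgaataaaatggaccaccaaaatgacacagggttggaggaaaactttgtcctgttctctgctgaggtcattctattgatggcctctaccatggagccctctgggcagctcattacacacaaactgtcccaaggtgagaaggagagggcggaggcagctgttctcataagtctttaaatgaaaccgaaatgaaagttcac
Ctsd, chr7:142387828-142388077, minus strand: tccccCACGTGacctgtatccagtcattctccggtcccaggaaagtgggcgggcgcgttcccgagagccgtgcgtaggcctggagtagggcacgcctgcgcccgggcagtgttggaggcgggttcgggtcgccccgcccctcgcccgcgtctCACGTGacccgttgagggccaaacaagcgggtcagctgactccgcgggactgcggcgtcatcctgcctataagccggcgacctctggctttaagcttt
CACGTG, which reads the same on both strands, was in a window of 4 of the 8 genes (Ctsa, Ctsd, Ctsl and Lgmn), against 6.86% of the 27025 genes with a window. It begins 12 bases before the second start in Ctsa and 49 bases before the second start in Lgmn. The windows of their first starts, of which that of Ctsa is not shown, have 0 matches. In Ctsd it occurs 2 times, 245 and 98 bases before the start. The longer TCACGTGA, which contains it, was found for Ctsa and Ctsd, against 0.907% of genes. Ctss, which separated the sets, has no CACGTG in its window, and Ctsd, which overlapped between them, has 2. A match is a description of letters and not of binding.

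The rest of the lysosome was set beside the proteases. Of 34 measured soluble hydrolases and activators 0 passed by genotype, as did 0 of 22 lysosomal membrane proteins, 0 of 16 proton pump subunits, 0 of 15 sorting genes and 0 of 4 transcription factors of the MiT/TFE family, in either fit. The smallest unadjusted p-values among hydrolases were those of Smpd1, the acid sphingomyelinase, at -0.18 (SE 0.112) and Naglu, which cuts heparan sulfate, at -0.19 (SE 0.128) on the log2 scale. Among membrane proteins they were those of the nucleoside transporter Slc29a3 at -0.19 (SE 0.112) and Tmem192 at 0.15 (SE 0.0910), and among pump subunits those of Atp6v1e1 at -0.15 (SE 0.0845) and Atp6v0b at 0.13 (SE 0.0775). Clta, a clathrin light chain, differed by 0.13 and M6pr, a mannose 6-phosphate receptor, by -0.17, and the factors Tfeb and Mitf by -0.079 and 0.10.

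Between array sets, the hydrolases had a median difference of -0.26, with 12 of 34 lower in the Xist set without overlap and 1 higher. Over all genes 6.59% were lower and 7.45% higher without overlap. The lowest were Acp5, the tartrate-resistant acid phosphatase, at -1.05 and Ids, the iduronate sulfatase, at -1.03, and Arsb, which removes sulfate from dermatan sulfate, was highest at 0.95. Neu1, the sialidase that Ctsa shields, differed by -0.51 without overlap, and Glb1, the beta-galactosidase of the same complex, by -0.029. Membrane proteins had a median of -0.25, with 9 of 22 lower without overlap, Slc15a3 and the cystine transporter Ctns lowest at -0.87 and -0.60, while the tetraspanin Cd63 stood at 1.80.

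Pump subunits had a median of 0.053, with 2 of 16 lower and 2 higher without overlap, among them Atp6ap1 at -0.39 and Atp6v1c1 at 0.40. Of the genes above the median level, 12.6% were lower without overlap and 13.9% higher. Sorting genes had a median of -0.063, with 2 of 15 lower without overlap, Ap3d1 lowest at -0.57, and Ap1s1 at 0.71 with overlap. Of the MiT/TFE factors, which switch on lysosomal genes, Tfe3 differed by -0.77 and Tfec by 2.11, each without overlap, and Mitf and Tfeb by -0.44 and -0.12 with overlap.

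**Figure D4:**
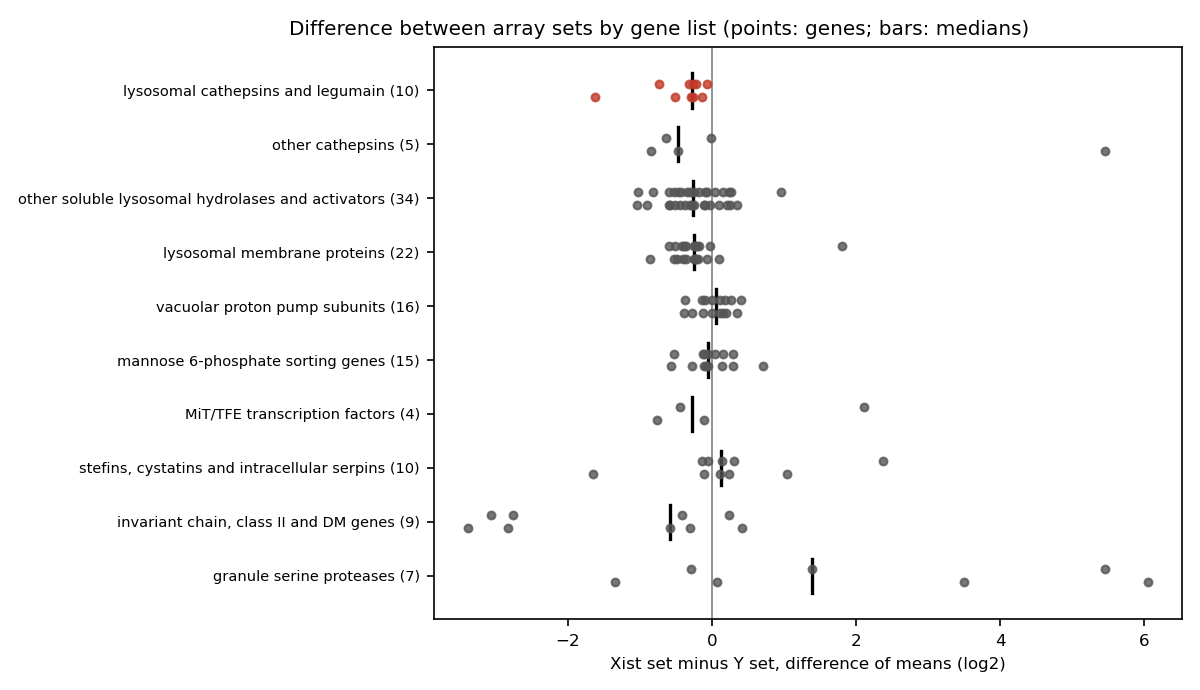
Difference of means between the Xist set and the Y set (log2) for each measured gene of 10 lists, with the number of genes in brackets. Points are genes, with the 10 proteases in red, and bars are list medians. The protease median of -0.28 lies near those of the hydrolases at -0.26 and the membrane proteins at -0.25.

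Cathepsins outside the group went different ways between sets. Ctsg, a serine protease of primary granules that shares only its name with the cysteine cathepsins, averaged 10.86 ± 0.09 in the Xist set and 5.40 ± 0.60 in the Y set (SD, n = 6 each), a difference of 5.45. Ctse, an aspartic protease, differed by -0.85 and Ctso by -0.64, both without overlap. By genotype 0 of these 5 other cathepsins passed, with Ctsf at -0.12 and Ctsw at -0.11. Of 9 placental cathepsins 0 passed, and Cts3 at 0.34 (SE 0.0933) and Ctsm at 0.22 (SE 0.101) had the smallest unadjusted p-values. Cts3 averaged 3.0 on TRIM33 arrays and 2.66 on WT arrays, below the medians of all features.

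Granule serine proteases, several of which Ctsc activates, had a median difference between sets of 1.39 over 7 genes, with Elane, the neutrophil elastase, at 6.05 and Ctsg as given above, and with Gzma and Gzmk, granzymes of lymphocytes, at -1.35 and -0.30, of which Gzmk overlapped. Ctsc itself differed by -0.32. By genotype 0 of the 7 passed, with Gzmk at -0.27 (SE 0.182) and Gzma at -0.38 (SE 0.418). The invariant chain, class II and DM genes had a median between sets of -0.59 over 9 genes. H2-Aa stood at -3.38, H2-Ab1 at -3.07 and the invariant chain gene Cd74 at -2.76. H2-Oa and H2-DMb2 stood at 0.41 and 0.23 with overlap. By genotype 0 of the 9 passed, with H2-Oa at 0.18 and H2-DMb2 at -0.14.

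The inhibitors held the single gene of these lists that passed by genotype. Stfa1, a stefin of the type that blocks cysteine cathepsins, rose by 2.74 on the log2 scale in TRIM33 arrays (SE 0.251; limma adjusted p = 0.000653), with means of 5.92 ± 0.60 on TRIM33 arrays and 3.18 ± 0.33 on WT arrays (SD, n = 6 each). In this list 1 of 10 measured genes passed, and Stfa1 has close copies that its probes may not tell apart. With the mixes left out, which leaves fewer arrays, 0 genes passed, so neither Stfa1 nor Trim33 itself passed there. Unadjusted p-values under 0.05 by limma over all arrays were found for 3 of the 10, against 3.07% of all genes. They were those of Stfa1, Stfa3 and Stfa2l1, all stefins. Stfa2l1 differed by 1.97 (SE 0.681; limma adjusted p = 1, or 0.401 in the blocked fit) and Stfa3 by 0.75 (SE 0.186; limma adjusted p = 1, or 0.267 in the blocked fit). Cystatin C, encoded by Cst3, differed by 0.081 (SE 0.0669). Between sets Cst7, which encodes cystatin F, a cystatin of lysosomes in blood cells, averaged 8.05 ± 0.14 in the Xist set and 5.68 ± 0.17 in the Y set, without overlap. The other inhibitors overlapped between sets, among them Serpinb1a at 1.05, Stfa2l1 at -1.66 and Stfa1 at -0.14.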

How the data were processed

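The deposited table holds log2 expression values, 1 per gene-level feature and array, made by the authors with RMA and Partek per the submitters' processing notes. Not given in the sources used here are their versions, the chip definition, the genome build and whether batches were handled. RMA equalises arrays at the level of probes, before they are summarised per gene, which can mask a change common to most genes. RNA was amplified from 900 pg per the labels. The number of arrays limits the precision.

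Of 24479 features, 23281 carried 1 symbol, 0 several and 1198 none. Where 2 features shared a symbol the one of higher mean was kept, which left 23279 genes. Genes were tested with limma 3.58.1 in R 4.3.3 (lmFit, eBayes; genotype only, 12 arrays, Benjamini-Hochberg over all genes, threshold 0.05), and also with the array set as a block, within sets and with an interaction. Fits were tested on simulated data. Sets came from clustering on correlation distance with average linkage. Arrays correlated at 0.986 to 0.992 within sets and 0.955 to 0.967 between them, and 0 pairs were identical. Figures used matplotlib 3.10.9.

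The members and lists were chosen with earlier results of these data known. Named genes were all members, list genes that passed (or the 2 of lowest p), the 2 with the largest set difference in each direction, and the 3 most like the members' mean; Neu1, Glb1, Cd74, Cst3, Stfa3, Alas2, Csf1r, Ly6c2, Ctsc beside its targets and Kdm5d were added after their values were seen. Of the genes listed, 7 hydrolases, 2 pump subunits and 3 inhibitors were not analysed here.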

Additional observations from a re-analysis of the deposited data

Results flagged for a closer look

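Of 40 groups of 6 arrays examined, 10 genes in each genotype and in each array set, 1 held an array far from the others: WT replicate 2 read 10.53 for Ctsa in the Xist set, where the next array read 10.84 and the highest 10.98. Its gap was 0.686 of the range, past Dixon's critical value for 6 arrays, which chance passes in about 5% of groups. The same array held the lowest reading over all 12 arrays of Ctsa, Ctsb, Ctsc, Ctsh, Ctss, Ctsz and Lgmn. Without it the set difference of Ctsa was -0.67 on the log2 scale. Its genotype difference was then -0.080 in the unblocked fit, where the step also leaves the sets unequal between genotypes, and -0.013 in the blocked fit.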

How the results depend on the processing

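No protease passed by genotype under any of the 36 alternatives run, nor in the 17 of the test between sets. The count of genes that passed, 5, was 9 with the array set as a block, 0 without the mixes (limma; 565 at an unadjusted p under 0.05), 8 in the Y set alone and 3 in the Xist set alone, and 5 to 15 over fits that left out each array in turn, with and without the block (the highest without TRIM33 replicate 4). Differences near 0 changed sign: without the mixes Ctsb was -0.0015, Ctsd -0.072, Ctsk -0.17, Ctsl -0.031 and Ctss -0.0011; in the Y set alone Ctsd was -0.040, Ctsh -0.017 and Ctsl -0.016; in the Xist set alone Ctsb was -0.024, Ctsk -0.10, Ctss -0.027 and Ctsz 0.037; and with quantile normalization Ctsa was -0.00093, Ctsb -0.036, Ctsd -0.046 and Ctss -0.061. Leaving out each array in turn, with and without the block, gave -0.080 to 0.14 for Ctsa, -0.047 to 0.10 for Ctsb and -0.065 to 0.068 for Ctsd. It gave -0.061 to 0.16 for Ctsk, -0.10 to 0.12 for Ctsl and -0.056 to 0.066 for Ctss. Without the block this step also leaves the sets unequal between genotypes. In the blocked fit alone Ctsa ran from -0.013 to 0.087 and Ctss from -0.0066 to 0.025. The cause was not tested. The proteases whose sets did not overlap, 3, were 7 without the mixes (2 arrays left in the Y set), 5 among TRIM33 arrays alone and 6 among WT arrays alone, and 3 or 4 with any array left out; the last 2 settings by genotype, and leaving out arrays with the block, were chosen after seeing the data. Lgmn, Ctsa and Ctss were among them each time. Without the mixes 9 of the 10 means, not 10, were lower in the Xist set, Ctsd being 0.0025 higher. With the mix number as a replicate block 6 genes and 0 proteases passed, and the genotype difference of Lgmn was 0.35, as without it. The deviations of same-numbered mixes from the mean of their genotype's mixes correlated at r = 0.118. With 2 mixes per genotype this is a single value, the same for each mix number by construction. It therefore cannot show whether the number pairs arrays, and the main fit did not use the number. Dim genes such as Ctsk have little signal over background, which limits what their values show.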
